A study of Drosophila melanogaster with 2 samples.

Results

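The core genes of the Drosophila Toll pathway were examined in S2 cells, an established embryonic fly line that resembles macrophage-like blood cells (plasmatocytes). The genes were taken by name: spz, nec, Tl, Myd88, tub, pll, cact, dl and Dif. Their signals were read from every probe set that the platform annotation assigned to 1 of these genes alone. All 9 genes had such a probe set, among the 11983 genes measured this way, and together they had 12 probe sets. No probe set assigned to several genes named any of them. The study hybridised 2 Affymetrix Drosophila Genome 2.0 arrays, replicates 1 and 2 of a single group. Those cells were grown at 25 °C and soaked with double-stranded RNA against GFP, a green fluorescent protein for which the fly genome has no gene, for 8 days in rounds of 4 days. No other treatment was analysed here, so the levels describe dsRNA-treated cells and no effect of the dsRNA could be measured. The labels do not say whether the duplicates came from separate cultures, and their spread may therefore be technical.

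The Toll pathway carries a signal from the body fluid to the nucleus. Spätzle, the product of spz, is cut by a serine protease and binds the receptor Toll. Toll acts through the adaptors MyD88 and Tube and the kinase Pelle, Cactus is degraded, and the NF-kappaB factors Dorsal and Dif, which Cactus holds in the cytoplasm, enter the nucleus. The pathway is known for setting the dorsal to ventral axis of the embryo and for the response to Gram-positive bacteria and fungi in the fat body and in blood cells.

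Of the 9 core genes 8 were detected, and nec alone was not. A gene was called detected where a probe set lay above a background limit on both arrays. That limit was the 95th percentile of 125 probe sets of odorant and gustatory receptor genes, and it stood at a signal of 146 on replicate 1 and 136 on replicate 2. Over all genes other than the receptors, 49.5% were detected. By single probe sets, 11 of the 12 passed, against 46.5% of all those named by 1 gene. The same 8 genes were detected when all of a gene's sets were required (47% of all genes), on replicate 2 alone (51.1%), on replicate 1 alone (50.1%), with the 90th percentile as the limit (52%) and with a limit from 50 control probe sets (58.6%). Signals are linear intensities in arbitrary units. Probe sets differ in how they respond, so the level of one gene was not ranked against that of another.

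Marker genes of several cell types were also read, and their counts are set beside the 49.5% of all genes detected. The marker lists were written with earlier results of these data known, so they are no independent check of the cell type. Of 10 genes listed as markers of blood cells (hemocytes) in general, 9 were above the limit. These included Hml (hemolectin) at 4877 and 4141, eater, a phagocytic receptor gene, at 233 and 229, and Pxn (peroxidasin) by 1 of its 2 probe sets (8376 and 7680). NimC1, another phagocytic receptor gene, was below it on both arrays (96.6 and 127). Of 7 measured markers of crystal cells and lamellocytes 1 was above the limit, the prophenoloxidase gene PPO3 (731 and 872). PPO1, PPO2, lz and peb were below it. So were atilla (24.0 and 25.1) and ItgaPS4 (143 and 109), named here after their values were seen. Of 5 measured fat body markers 2 were above it, Lsp2 and Npc2g, a share near that of all genes, and Yp1, Fbp1 and apolpp were below it. Of 4 measured neuronal markers elav was above the limit, and nSyb, brp and para were below it. In bulk RNA of this kind, fewer cells expressing a gene and less of its RNA per cell cannot be told apart.

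**Figure D1:**
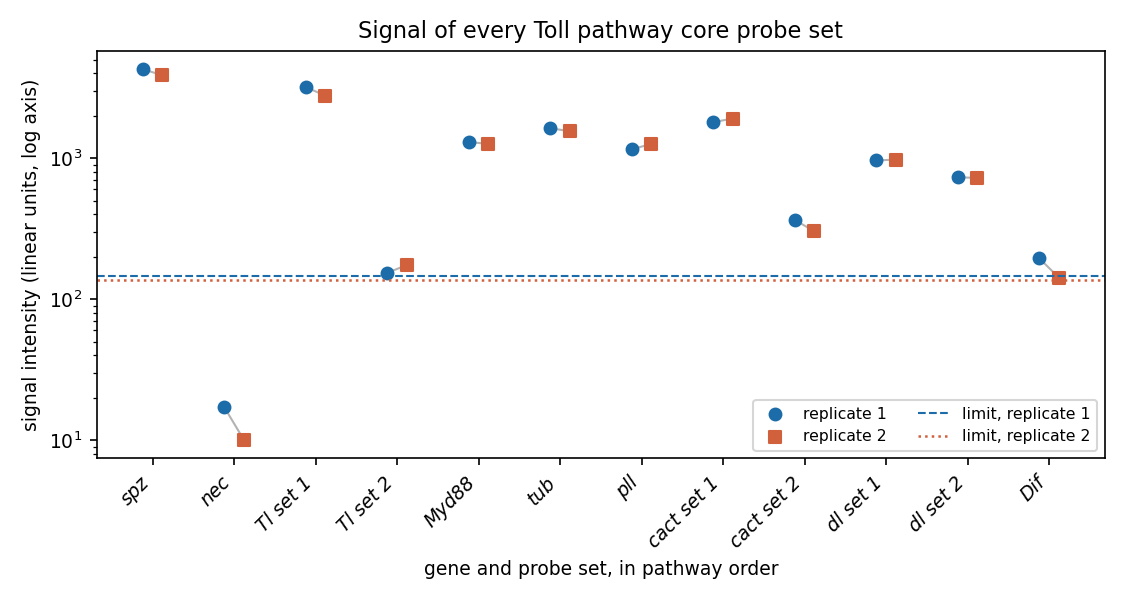
Signal intensity (linear units on a log axis) of each of the 12 probe sets on replicate 1 (circles) and replicate 2 (squares), in pathway order, with each array's background limit as a line. Only nec lies below both limits, and the dimmer Tl set and Dif lie just above them.

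The ligand and its extracellular control came first. The ligand gene spz had signals of 4264 on replicate 1 and 3872 on replicate 2, with a mean of 4068 ± 278 (SD, n = 2). Both values exceeded those of all 125 receptor probe sets, at 29.2 and 28.5 times the limit of their array. The serpin gene nec (necrotic), whose product restrains the protease that persephone encodes, had signals of 17.1 and 10.1. These values exceeded those of only 31 and 20 of the 125 receptor probe sets, so nec was not detected on either array and no fold difference is given for it.

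The receptor gene Tl had 2 probe sets with very different signals. The brighter one (1639321_s_at) read 3192 and 2768, or 2980 ± 300 (SD, n = 2), above all receptor probe sets. The dimmer one (1624769_s_at) read 154 and 175, or 164 ± 15 (SD, n = 2). It lay at 1.05 and 1.29 times the limit, with 3 of the 125 receptor probe sets brighter on each array. Both sets therefore passed, one far above the limit and one at its edge. Both Tl sets carry the suffix (_s_at) that Affymetrix gives to sets shared by several transcripts. So do the only Dif set and the brighter sets of cact and dl. The positions of their probes were not analysed here, so signal from another gene was not checked beyond the platform annotation.

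The genes that pass the signal from the receptor were all above the limit. Myd88, the adaptor that binds Toll, read 1300 and 1263, or 1281 ± 26.2 (SD, n = 2). The adaptor gene tub read 1629 and 1551, or 1590 ± 54.6 (SD, n = 2), and both values exceeded all receptor probe sets. The kinase gene pll, the fly relative of mammalian IRAK kinases, read 1158 and 1258, or 1208 ± 70.9 (SD, n = 2). Each of these 3 genes has a single probe set, and each stood at 7.93 times the limit or more on both arrays. On each array 1 of the 125 receptor probe sets was brighter than Myd88 and pll.

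The inhibitor gene cact, the fly IkappaB, was detected by both of its probe sets. The brighter one (1636926_s_at) read 1799 and 1909, or 1854 ± 77.8 (SD, n = 2), and the dimmer one (1629899_at) read 364 and 303, or 333 ± 43.7 (SD, n = 2). The dimmer set was still 2.50 and 2.23 times the limit, so either set alone called the gene detected.

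The transcription factor genes dl (dorsal) and Dif had different positions relative to the limit. The gene dl read 962 and 977 on its brighter probe set (1639692_s_at, 969 ± 10.2, SD, n = 2) and 732 and 724 on the other (1623415_at, 728 ± 5.39, SD, n = 2). Both sets were at 5.01 times the limit or more on both arrays, with 1 of the 125 receptor probe sets brighter on each array. Dif, the Dorsal-related factor used in the adult immune response, read 194 and 142 on its only probe set, or 168 ± 36.9 (SD, n = 2). That was 1.33 times the limit on replicate 1 and 1.05 times on replicate 2, where 5 of the 125 receptor probe sets were brighter. With the 99th percentile of the receptors as the limit, a signal of 184 on replicate 1 and 279 on replicate 2, Dif passed on replicate 1 only and was no longer called, which left 7 of 9 genes against 44.2% of all genes. The dimmer Tl set was lost at that limit as well, while Tl kept its call through the brighter set. Levels of dl and Dif come from different probes and do not give a ratio of their transcripts.

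Between the duplicates, 9 of the 11 detected core probe sets differed by less than the SD of that difference over all detected probe sets. With 1 array per replicate there is no test of this difference. Of the 11 detected probe sets 4 were higher on replicate 2, against 49.5% of all detected probe sets. Their median log2 difference, replicate 2 minus replicate 1, was -0.04, against -0.0023 over all 7262 detected probe sets, whose SD was 0.23. A difference larger than that SD was seen in 2 of the 11, against a background of 25.1%.

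**Figure D2:**
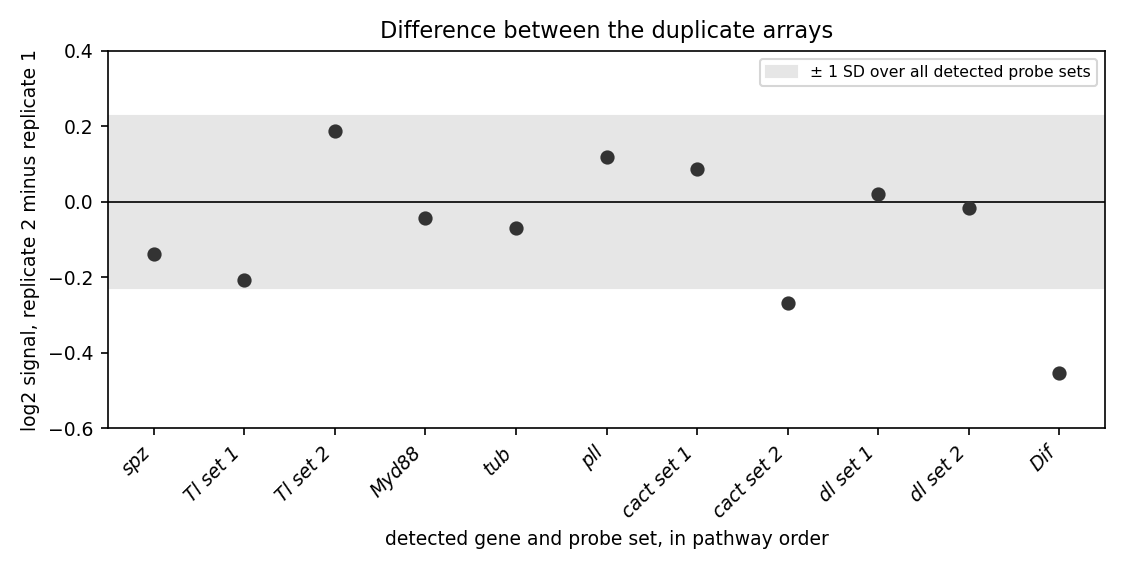
Log2 signal of replicate 2 minus replicate 1 for the 11 detected probe sets, in pathway order, with a grey band of 1 SD (0.23) on either side of 0 taken over all 7262 detected probe sets. Dif (-0.45) and the dimmer cact set (-0.27) lie outside the band.

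Dif had the largest difference of the 11, with replicate 1 at 1.37 times replicate 2 (-0.45 on the log2 scale). A difference of that size or larger was found in 5.12% of all detected probe sets and in 9.69% of the dimmest 25% of them, where the SD was 0.27. The dimmer cact set was next, at -0.27, while the brighter set of the same gene was 0.09 higher on replicate 2. The Tl sets also went opposite ways, at -0.21 for the brighter and 0.19 for the dimmer one. For these 2 genes the difference between arrays thus had no common direction over their own probe sets. The dl sets were nearly equal on the arrays but also differed in sign, at 0.02 and -0.02. After median scaling both dl sets were negative, at -0.04 and -0.08. By sign alone, and with the intensities as deposited, all 3 core genes with 2 probe sets went opposite ways. The same was counted in 44.4% of the 180 genes with exactly 2 probe sets, both detected. The ligand gene spz was at -0.14, Myd88 at -0.04, tub at -0.07 and pll at 0.12, all within the SD over all detected probe sets.

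Other genes of the pathway were described by 5 lists of 47 genes, of which 32 were measured and 16 detected, or 50% against the 49.5% of all genes. The lists differed among themselves, and no test was made of that difference. These lists, and that of the Imd pathway, were written with earlier results of these data known.

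**Figure D3:**
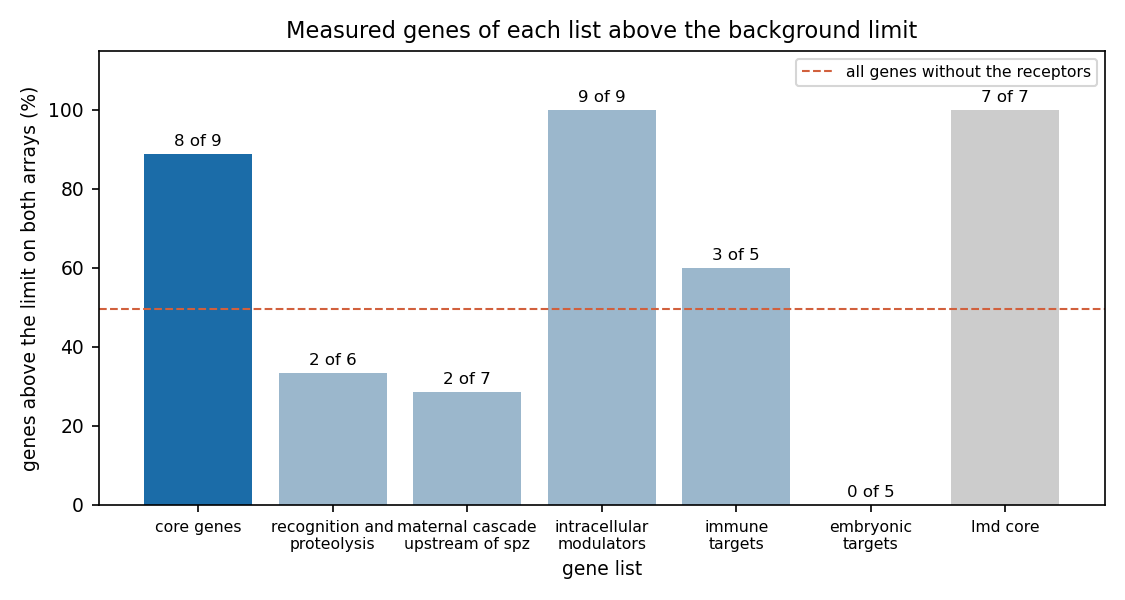
Percentage of the measured genes of each list that lay above the background limit on both arrays, with the number detected and measured above each bar and the 49.5% of all genes other than the receptors as a dashed line. The core genes (8 of 9), intracellular modulators (9 of 9) and Imd core (7 of 7) stand above the line. Both lists upstream of spz (2 of 6 and 2 of 7) and the embryonic targets (0 of 5) lie below it.

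Upstream of spz, most of the listed genes that were measured were below the limit. In the immune recognition and protease list 2 of 6 measured genes were detected, against 49.5% of all genes. These were GNBP3, a receptor for fungal glucans, at 830 and 719, and the serine protease gene grass, at 2054 and 1524. The protease gene psh (persephone) was not detected at 68.0 and 5.18, so psh and its serpin gene nec were both below the limit on both arrays. Hayan, another serine protease gene of this cascade, was at 57.8 and 113. The remaining pair, named here after their values were seen, were spirit at 13.8 and 11.3 and SPE, the Spätzle-processing enzyme gene, at 3.35 and 5.17. PGRP-SA, PGRP-SD, GNBP1 and modSP had no probe set of their own and were not measured.

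Of 7 genes listed for the maternal steps upstream of spz, not all of them protease genes, 2 were detected, against 49.5% of all genes. The modular protease gene ndl was at 3.25 and 3.18, gd at 49.5 and 93.4, and snk at 15.1 and 7.31, all below the limit. The protease gene ea (easter) passed narrowly, at 178 and 136.4 against limits of 146 and 135.7, and was lost with the 99th percentile limit. Spn27A, a serpin gene whose product inhibits Easter, was clearly above the limit at 1368 and 1200.

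All 9 measured intracellular modulators were detected, against 49.5% of all genes. The zinc finger adaptor gene wek was at 626 and 741, the ubiquitin ligase gene Traf6 at 313 and 305, the G protein-coupled receptor kinase gene Gprk2 at 843 and 880, and the arrestin gene krz at 531 and 440. The gene aPKC, named here after its values were seen, passed by 1 of its 2 probe sets (1403 and 1293, against 9.72 and 28.3 for the other), so 8 of 9 remained when all sets were required. Of the 9 detected probe sets of this list 6 were higher on replicate 2, against 49.5% of all detected probe sets.

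Of 5 measured genes reported as targets of Toll in infection 3 were detected, a share near the 49.5% of all genes detected. The antifungal peptide gene Drs (drosomycin) had signals of 1640 and 1505, and the peptide gene Mtk (metchnikowin) 3530 and 2580. Rel, the NF-kappaB gene of the Imd pathway, was the third, at 2404 and 2013. It is named here after its values were seen and also stands in the Imd list. BomS2, a Bomanin peptide gene, was below the limit at 23.5 and 44.5, as was Def (defensin) at 69.6 and 49.1. On the log2 scale the difference, replicate 2 minus replicate 1, was -0.12 for Drs, -0.45 for Mtk and -0.26 for Rel, and 49.5% of all detected probe sets were higher on replicate 2.

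None of the 5 measured genes that Dorsal regulates in the early embryo was detected, against 49.5% of all genes. The mesoderm genes twi and sna were at 21.3 and 29.9 and at 82.4 and 98.4. The dorsal genes zen and dpp, which Dorsal represses in the embryo, were at 9.89 and 8.08 and at 67.4 and 34.1. dl itself was at least 5.01 times the limit on the same arrays, so the factor gene was detected and these 5 genes were not. Because the list includes genes that Dorsal represses, this count does not measure Dorsal activity. Of these 5, only sna passed the lower limit drawn from 50 control probe sets.

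The intracellular genes of the Imd pathway, the other NF-kappaB pathway of fly immunity, were detected in 7 of 7 measured cases, including imd at 199 and 205, Fadd at 703 and 787, Dredd at 901 and 840 and Tab2 at 1974 and 1941. The core Toll genes were detected in 8 of 9, and of all genes 49.5% were detected. The difference between these shares rests on nec alone and was not tested. At the 99th percentile limit imd was lost as well, which left 6 of 7 beside 7 of 9 core genes.

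Because the series concerns transcription from both strands, the protein-coding genes next to the core genes were also read, a choice made after the values were seen. By the annotated spans of the release 6 RefSeq gene table, 5 core genes overlap another protein-coding gene. The span of pll lies inside that of TfIIA-L, a general transcription factor gene, which read 3233 and 3266 beside 1158 and 1258 for pll. The span of cact overlaps that of the cell cycle gene fzy, which was detected by 1 of its 3 probe sets (3117 and 2923). Dif overlaps CG15141, which read 1052 and 1079 beside 194 and 142 for Dif. The span of nec lies inside that of pk, and spz encloses CG43935; neither pk nor CG43935 was measured. Of 23 overlapping or nearest neighbours 21 were measured and 9 were detected, a share near the 49.5% of all genes. The strand of these genes was not used, so which of the overlaps are antisense was not determined. Signals of neighbouring genes come from different probes and were not ranked against those of the core genes.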

How the data were processed

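For each of 18952 probe sets the authors deposited a linear intensity on each array, obtained with GeneChip Operating Software 1.2.0.037 per the series' design text. How probes were summarised, scaled or filtered is not given in the sources used here. Per the labels' protocols, 10 µg of amplified biotin-labelled RNA was hybridised for 16 hours. Column medians were 70.8 and 73.8, and the intensities were used as deposited. There are 2 arrays and no counts, so their number limits the precision.

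The platform annotation named 13647 probe sets by 1 gene. Symbols were updated through gene identifiers in a RefSeq table of the release 6 assembly. The annotation behind the deposited values names no build, so no coordinates are given. Detection used the 95th percentile of the 125 receptor probe sets (112 genes) on each array, of which 5 genes passed on both. Signals under 1 were set to 1 before taking log2. Calculations used Python 3.11.15 with pandas 2.3.3 and were tested on simulated data. No test between groups was possible with 1 group, and no p-value was computed.

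The members and lists were chosen with earlier results of these data known. Named genes were all members and, of each other list, the first 4 measured and up to 4 whose detection went against its majority. Genes named outside this rule are marked as such where they appear. Alternatives were the 90th and 99th percentile, a limit from 50 control probe sets, all probe sets of a gene required, each array alone, median scaling, quantile normalization, and pseudocounts of 16 and 50.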

Additional observations from a re-analysis of the deposited data

How the results depend on the processing

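The count of core genes detected was 8 at the 90th percentile limit, with the limit from 50 control probe sets, when every probe set had to pass, without replicate 1, without replicate 2 and after median scaling, and 7 at the 99th percentile, where Dif was lost. Over these settings the share of all genes detected ran from 44.2% to 58.6%. At the 99th percentile 1 gene of the maternal cascade, 0 fat body markers and 0 neuronal markers were detected, as were 6 of 7 Imd genes and 8 of 10 hemocyte markers. With all probe sets required, 8 of 9 modulators and 8 of 10 hemocyte markers passed. Under the control-based limit (68.4 and 67.4) 1 embryonic target, 2 crystal cell and lamellocyte markers and 2 neuronal markers were detected. The median difference of all 12 core probe sets was -0.06, and ran from -0.12 (median scaling) to -0.04 (detected sets only). Median scaling turned the sign of 1 probe set, the brighter one of dl, and moved the median of all detected probe sets by -0.06. Signals near or below the limit cannot be ordered, which touches Dif, the dimmer Tl set and nec. No paired analysis was possible because there is only 1 group.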
